A study of Mus musculus with 34 samples.

Results

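Genes subject to parental imprinting were read from the RNA-seq table of mESCs of the J1 line, mouse embryonic stem cells that need LIF to self-renew in serum. The 43 genes were taken from a list of gene symbols, and all 43 were found among the 23366 rows. The serum/-LIF group held 2 libraries of cells in serum-containing medium from which LIF was withdrawn, and the serum/-LIF + Royalactin group held 2 libraries of the same line in the same medium with 0.5 mg/ml Royalactin, a major royal jelly protein of the honeybee. LIF was therefore absent from both groups, and the labels give passage 40 for all 4 libraries, where the study's text names another passage. The comparison asks how the RNA levels of these genes differed when Royalactin was present. J1 is a single line, so the libraries cannot show the spread between lines. The series is described as having biological duplicates, but nothing ties a library to a separate culture, so that p-values measure only the spread between these libraries.

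An imprinted gene is transcribed mainly from the copy inherited from one parent, because DNA methylation laid down in the egg or the sperm marks a control region that the embryo then keeps through its early wave of demethylation. Many imprinted genes lie in clusters in which a long noncoding RNA from one parental copy silences, or is expressed in place of, protein-coding neighbours. Paternally expressed genes such as Igf2 tend to promote growth and maternally expressed genes such as Cdkn1c, Grb10 and Igf2r tend to restrain it, and imprints of cultured mESCs are known to be unstable. The counts used here add both parental copies together and carry no information on which of them was transcribed.

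The libraries held 14737796 to 17597818 reads on genes, of which the ribosomal RNA precursor Rn45s took 9.08% to 46.6%, which left 7878527 to 15999458 reads on other genes. Values are normalized counts, that is reads divided by 1 size factor per library, and 1 read was worth 0.688 to 1.34 of them. The serum/-LIF libraries were less alike (Pearson r = 0.876 across 12993 genes) than the serum/-LIF + Royalactin libraries (r = 0.929), and genes are not independent replicates. All 12 pluripotency markers passed the filter on low values, and Pou5f1, the gene for Oct4, lay between 4996 and 7453 in the 4 libraries. Of these 12 genes, 5 rose with Royalactin (limma with Benjamini-Hochberg adjustment, adjusted p under 0.05, where 0.331% of all tested genes were called higher) and 11 had a fitted log2 fold change above 0.

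No imprinted gene passed the test. Of the 43 genes, 38 reached a mean of 10 normalized counts in the 4 libraries and were tested, and 0 of these 38 had an adjusted p under 0.05 (limma on log2(normalized count + 1), Benjamini-Hochberg over 12993 genes), where 0.493% of all tested genes did (0.331% higher and 0.162% lower). At an unadjusted p under 0.05 there were 6 of 38 (15.8%) against 9.34% of all tested genes (4.76% higher and 4.58% lower). They were Gnas, Igf2, Nnat, Grb10 and Sgce, each lower with Royalactin, and Peg3, which was higher, with Grb10 and Peg3 singled out after their values were seen. Only Igf2, Nnat and Sgce also differed at least 2-fold, against 7.13% of all tested genes, 3.52% higher and 3.61% lower. The number at an unadjusted p under 0.05 was 2 without serum/-LIF + Royalactin replicate 1 and 2 without replicate 2 of that group.

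More of the imprinted genes lay lower than higher with Royalactin, which is given as a description without a test. Both Royalactin libraries lay below both serum/-LIF libraries for 14 of 38 genes (36.8%), against 18.9% of all tested genes. Both lay above for 6 of 38 (15.8%), against 19.7%. In either direction the groups did not overlap for 20 of 38 (52.6%), against 38.6%. The 14 were Gnas, Igf2, Nnat, Grb10, Sgce, Magel2, Rian, Ndn, Mest, Plagl1, Cdkn1c, Zrsr1, Nespas and Inpp5f, and the 6 were Peg3, Sfmbt2, Phlda2, Impact, Mkrn3 and Ascl2. The fitted log2 fold change was below 0 for 26 of 38 genes, against 50.6% of all tested genes, and its median was -0.13 against -0.0076. Not all of these differences were large: the log2 fold change of Inpp5f, a phosphoinositide phosphatase whose groups did not overlap, was -0.05 (0.0084 with equal totals without Rn45s). With a single library left in one group, more genes lay apart in each direction, as fewer libraries leave less room for an overlap. The share of all tested genes lying apart was not computed for such fits. Because the RNA comes from whole cultures, fewer cells that express a gene and less RNA per cell cannot be told apart.

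**Figure D1:**
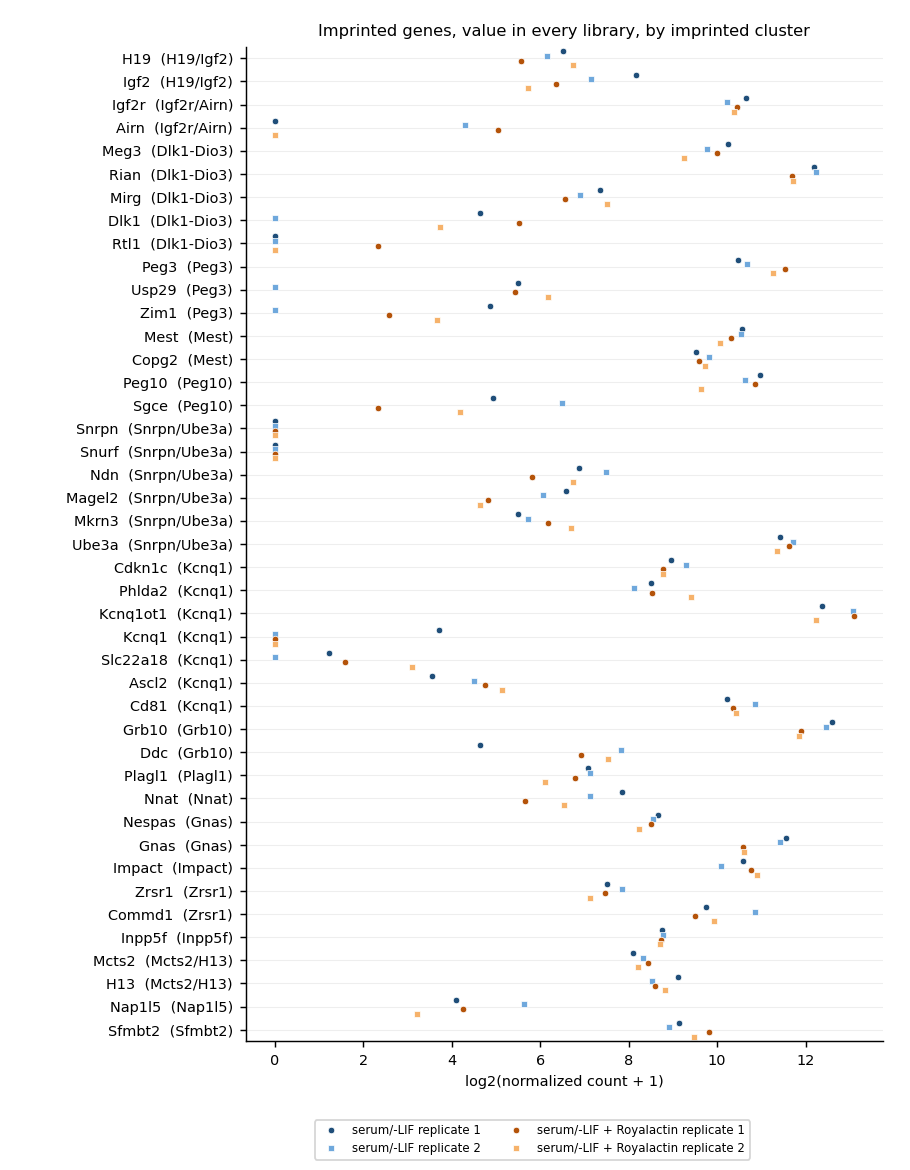
Normalized counts of the 43 imprinted genes in each library, as log2(normalized count + 1) on the horizontal axis, with 1 row per gene (its cluster in brackets) and 1 point per library, offset vertically so that equal values can be seen. Circles and squares stand for replicates 1 and 2, blue for serum/-LIF and orange for serum/-LIF + Royalactin. Both Royalactin points lie left of both serum/-LIF points for Gnas, Grb10 and Rian, and the widest rows are those of weakly expressed genes such as Airn, Dlk1 and Usp29.

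How precisely a gene was measured followed its level. For the 31 genes with a mean of at least 50 the median standard error of the log2 fold change was 0.36. The groups did not overlap for 18 of them, 13 lower and 5 higher (against 18.9% and 19.7% of all tested genes). Those shares include genes with a mean under 50, and shares for a mean of at least 50 were not computed. For the 7 tested imprinted genes with a mean under 50 the median standard error was 1.54, and for 5 of these the groups overlapped. The largest positive log2 fold changes, 3.06 for the deubiquitinase gene Usp29 and 2.31 for Dlk1, belong to this group and each rests on a serum/-LIF replicate 2 with no reads.

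**Figure D2:**
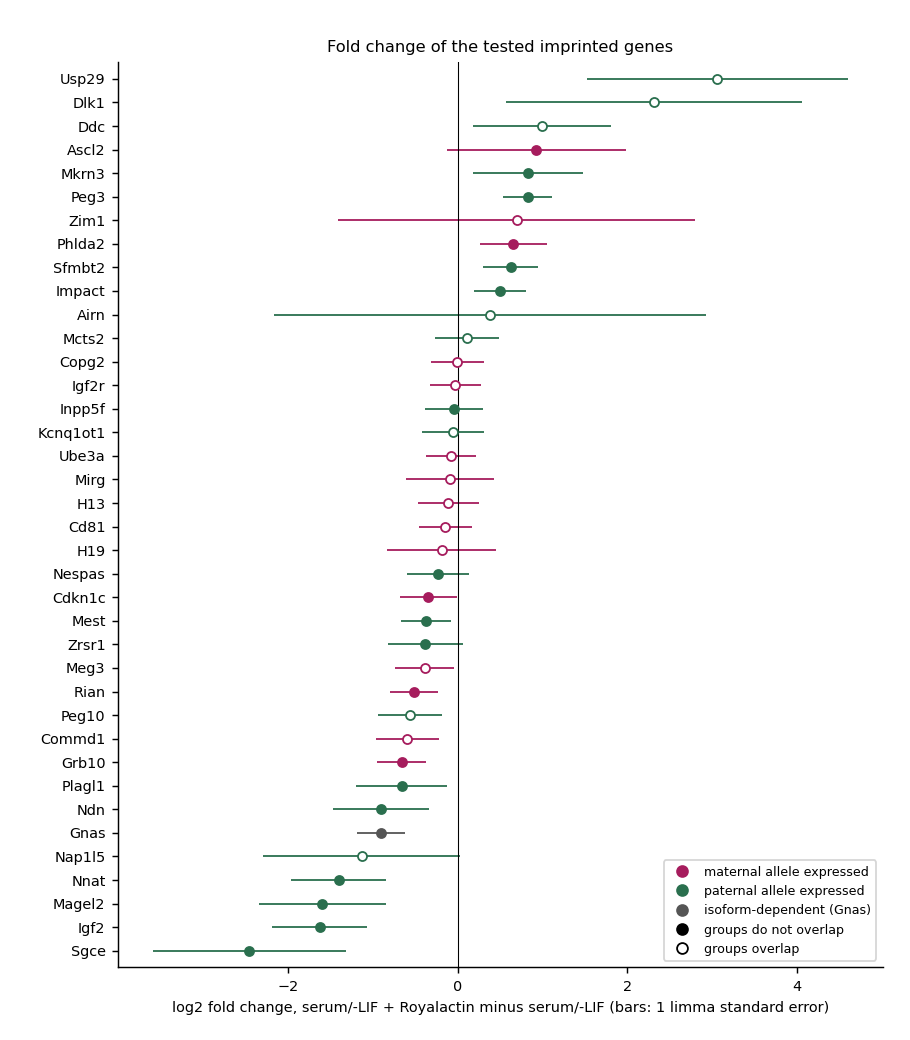
Log2 fold change (serum/-LIF + Royalactin minus serum/-LIF, on log2(normalized count + 1)) of each tested imprinted gene, with bars for 1 standard error from limma (2 libraries per group). Colour gives the parental class, which for some genes holds only in some tissues or isoforms. Filled points mark the 20 genes whose groups do not overlap. Of these, 14 lie below 0 and 6 above 0, and the longest bars belong to Airn, Zim1, Dlk1 and Usp29.

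At the H19/Igf2 cluster the growth factor gene was lower with Royalactin while the noncoding RNA was not separated. Igf2 (chr7:149836673-149852721 of mm9, minus strand), the paternally expressed insulin-like growth factor 2, had 285 and 142 normalized counts in serum/-LIF (replicate 1 first, as in all pairs of values) and 80.5 and 51.6 with Royalactin. Both Royalactin libraries were below both serum/-LIF libraries, although the serum/-LIF replicates themselves differed, and the log2 fold change was -1.63 (standard error, SE, 0.56, limma with Benjamini-Hochberg adjustment, adjusted p = 0.338). H19, the maternally expressed RNA of the same cluster and host of miR-675, had 90.9 and 70.4 in serum/-LIF and 46.3 and 106 with Royalactin. These values interleave, and the log2 fold change of -0.19 (SE 0.65) turned to 0.40 without serum/-LIF + Royalactin replicate 1. A window around a start site of Igf2 is given because it holds TGCCGC, which when methylated is the core that the imprint-keeping protein Zfp57 recognises. The other Igf2 windows do not hold it. Only windows with this hexamer are printed, for genes at an unadjusted p under 0.05 in limma. The Igf2 window shown spans 250 bases before to 50 after the start (RefSeq, GRCm38.p6, chr7:142661222-142661521, minus strand). Its capitals mark the match, which reads GCGGCA because it lies on the opposite strand.
Igf2: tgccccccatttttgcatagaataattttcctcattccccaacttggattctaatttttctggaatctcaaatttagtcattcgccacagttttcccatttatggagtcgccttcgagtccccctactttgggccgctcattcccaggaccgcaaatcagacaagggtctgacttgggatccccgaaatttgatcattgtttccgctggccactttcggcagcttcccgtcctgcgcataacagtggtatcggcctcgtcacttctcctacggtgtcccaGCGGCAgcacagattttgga

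At Igf2r/Airn neither gene separated the groups. Igf2r, the maternally expressed receptor that binds and clears Igf2, had 1618 and 1186 in serum/-LIF and 1393 and 1322 with Royalactin. The Royalactin libraries lay between the serum/-LIF libraries, with a log2 fold change of -0.03 (SE 0.30), above 0 (0.03) when the totals without Rn45s were set equal. Airn, the paternal antisense RNA that silences Igf2r, was close to its detection limit, with 0 and 18.6 in serum/-LIF and 32.2 and 0 with Royalactin.

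The ratio of 2 genes within a library does not depend on the scaling of that library, and a few such ratios were formed after the values were seen and are given without a test (2 libraries against 2 cannot give an exact permutation p below 0.333). The ratio of H19 to Igf2 was 0.319 and 0.496 in serum/-LIF and 0.575 and 2.05 with Royalactin. The ratio of Igf2r to Igf2 was 5.68 and 8.36 in serum/-LIF and 17.3 and 25.6 with Royalactin. Both ratios were higher in both Royalactin libraries, narrowly for the first of them.

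**Figure D3:**
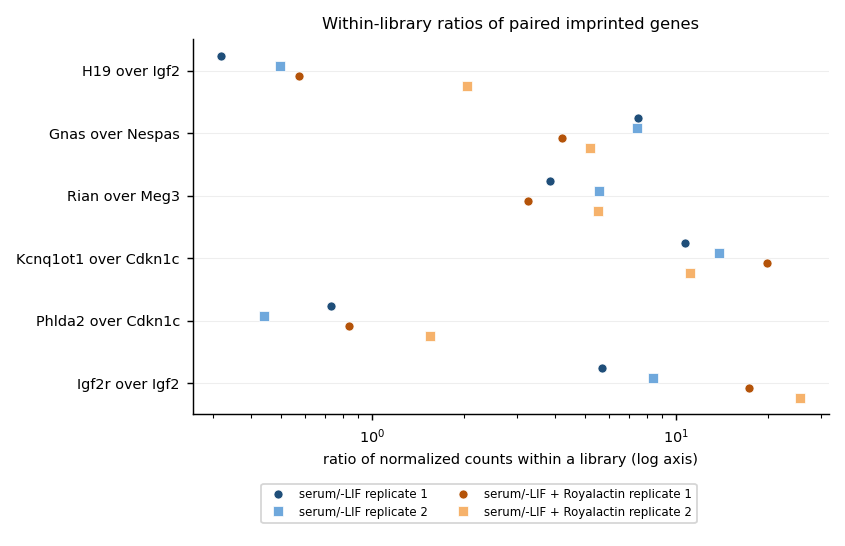
Ratios of normalized counts of pairs of imprinted genes within each library, on a log axis, with 1 point per library, circles and squares for replicates 1 and 2, blue for serum/-LIF and orange for serum/-LIF + Royalactin. The groups are apart for H19 over Igf2, Gnas over Nespas, Phlda2 over Cdkn1c and Igf2r over Igf2, and overlap for Rian over Meg3 and Kcnq1ot1 over Cdkn1c.

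At Dlk1-Dio3, Meg3, Rian and Mirg are maternally expressed noncoding RNAs that host small nucleolar RNAs and miRNAs. Of the 3 RNAs only Rian had groups that did not overlap, and the fitted log2 fold change was below 0 for each. Whether the 3 RNAs differed from one another was not tested. Rian (chr12:110842155-110899919, plus strand) had 4651 and 4846 in serum/-LIF and 3305 and 3338 with Royalactin. Both groups were tight and apart, and the log2 fold change was -0.52 (SE 0.29, adjusted p = 0.633 in limma after Benjamini-Hochberg adjustment). Meg3 had 1210 and 873 in serum/-LIF and 1019 and 604 with Royalactin, and its groups overlapped (log2 fold change -0.39, SE 0.35). Mirg had 163 and 118 in serum/-LIF and 93.5 and 181 with Royalactin. Its Royalactin libraries lay on either side of the serum/-LIF libraries (log2 fold change -0.09, SE 0.52, with a sign that turned without serum/-LIF replicate 1 or serum/-LIF + Royalactin replicate 1). The ratio of Rian to Meg3 was 3.84 and 5.55 in serum/-LIF and 3.24 and 5.53 with Royalactin, so it overlapped too. Dlk1, the paternally expressed transmembrane protein of the cluster, had 24.1 and 0 in serum/-LIF and 45.3 and 12.4 with Royalactin, with no separation. Rtl1, a paternally expressed gene derived from a retrotransposon, had 4 reads in serum/-LIF + Royalactin replicate 1 and none elsewhere. Of the exon tiles of Rian, 17.9% also match elsewhere in the genome at 2 mismatches or fewer, so its reads are less certain than those of Meg3 (3.7%).

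Rows for 28 miRNA genes hosted by or near these clusters were in the table, of which 14 had no reads in any library and 4 passed the filter on low values. None of the 4 passed the test, with 0 at an unadjusted p under 0.05 in limma, against 9.34% of all tested genes. These rows hold fragments of precursor and host RNA in libraries that were not made from small RNA, so that they do not measure the mature miRNA. The mature sequences are shown to identify the genes (RefSeq, GRCm38.p6, capitals for the seed, bases 2 to 8), and no seed is shared among them. Mir382, Mir134 and Mir485 lie at the Mirg end of Dlk1-Dio3, and Mir298 in the Nespas region.
mmu-miR-382-5p: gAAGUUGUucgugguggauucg
mmu-miR-134-5p: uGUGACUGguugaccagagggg
mmu-miR-485-3p: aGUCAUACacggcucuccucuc
mmu-miR-298-5p: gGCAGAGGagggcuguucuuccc
Mir485 had 12 and 28 reads in serum/-LIF and 0 in both Royalactin libraries. Mir134 had 40 and 0 reads in serum/-LIF and 35 and 22 with Royalactin. Mir382, with 0 and 15 reads in serum/-LIF and 36 and 6 with Royalactin, and Mir298, with 22 and 18 against 28 and 19, overlapped between the groups. Of the 4 genes only Mir485 had groups that were apart, at a low count (25%, against 38.6% of all tested genes).

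The Kcnq1 cluster held the gene with the highest counts of the 43, and its other tested genes differed in both directions. Kcnq1ot1, the paternal noncoding RNA that silences the cluster, had 5274 and 8642 in serum/-LIF and 8701 and 4854 with Royalactin. The replicates of each group were further apart than the group means, and the log2 fold change of -0.06 (SE 0.37) took the other sign with equal totals without Rn45s (0.00036), without serum/-LIF replicate 2 (0.30) and without serum/-LIF + Royalactin replicate 2 (0.37). Cdkn1c, the maternally expressed inhibitor of cyclin-dependent kinases p57, had 495 and 624 in serum/-LIF and 438 and 436 with Royalactin. The groups were apart by a small margin (log2 fold change -0.35, SE 0.34, adjusted p = 0.810 in limma after Benjamini-Hochberg adjustment). Phlda2, a maternally expressed regulator of placental growth, had 361 and 275 in serum/-LIF and 367 and 676 with Royalactin. Its groups were apart only narrowly, since serum/-LIF + Royalactin replicate 1 exceeded serum/-LIF replicate 1 by little (log2 fold change 0.66, SE 0.39). Ascl2, a maternally expressed factor of the trophoblast, had 10.7 and 21.7 in serum/-LIF and 26.2 and 34.4 with Royalactin, both above both, at a low level.

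The tetraspanin gene Cd81, on the outer edge of this cluster, had 1188 and 1839 in serum/-LIF and 1306 and 1369 with Royalactin, which lie between the former (log2 fold change -0.14, SE 0.31, and 0.17 without serum/-LIF replicate 2). The potassium channel gene Kcnq1 had 9 reads in serum/-LIF replicate 1 and none in the other libraries. The transporter gene Slc22a18 had 1, 0, 2 and 11 reads in the 4 libraries, serum/-LIF first, and neither gene was tested. Within libraries, Phlda2 over Cdkn1c was 0.730 and 0.441 in serum/-LIF and 0.839 and 1.55 with Royalactin. These maternally expressed neighbours of 1 cluster thus had ratios that did not overlap, while Kcnq1ot1 over Cdkn1c, at 10.7 and 13.8 in serum/-LIF against 19.9 and 11.1, overlapped.

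Gnas had the smallest p of the imprinted genes. Gnas (chr2:174109821-174172245, plus strand) encodes the stimulatory G protein alpha subunit and further products whose parental copy depends on the promoter. It had 3026 and 2759 normalized counts in serum/-LIF and 1533 and 1552 with Royalactin. The replicates of each group lay within a narrow band and the groups were well apart. The mean was 2893 ± 189 in serum/-LIF and 1543 ± 13.7 with Royalactin (SD, n = 2), a log2 fold change of -0.91 (SE 0.28, adjusted p = 0.263 in limma after Benjamini-Hochberg adjustment). Blocking on the replicate number gave an adjusted p of 0.0403 in limma, and over all alternatives it ranged from 0.0403 to 1.00. Nespas (chr2:174106738-174120937, minus strand), the paternal antisense RNA of the same locus, had 404 and 372 in serum/-LIF and 364 and 299 with Royalactin. The groups were apart by little, with a log2 fold change of -0.23 (SE 0.36). Gnas over Nespas was 7.49 and 7.43 in serum/-LIF and 4.21 and 5.20 with Royalactin. The exons of these genes overlap on opposite strands, over 22.0% of those of Gnas (Nespas and AF085738) and 31.4% of those of Nespas, and as the strand setting of the counting is not given in the sources used here, their reads could not be fully told apart. The counts also do not separate the products of Gnas.

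Among the listed genes of the Peg3 cluster, Peg3 and Usp29 are paternally expressed and Zim1 maternally, and Peg3 was higher with Royalactin. Peg3 (chr7:6656603-6683132, minus strand), a zinc finger protein with many fingers, had 1412 and 1646 in serum/-LIF and 2952 and 2469 with Royalactin. Both Royalactin libraries were well above, and the log2 fold change was 0.82 (SE 0.29, adjusted p = 0.354 in limma after Benjamini-Hochberg adjustment). Its neighbour Usp29 had 44.1 and 0 in serum/-LIF and 42.2 and 71.6 with Royalactin, with overlap. The zinc finger gene Zim1 had 28.1 and 0 in serum/-LIF and 5.03 and 11.7 with Royalactin, so its fitted log2 fold change (0.70) and its group means (14.0 and 8.37) differ in sign.

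Among the remaining paternally expressed genes, Nnat, Sgce and Magel2 differed more than 2-fold with groups that did not overlap, each lower with Royalactin, and none passed the test. Nnat (chr2:157385814-157388258, plus strand), neuronatin, a small membrane proteolipid, had 230 and 140 in serum/-LIF and 49.3 and 91.5 with Royalactin. Sgce (chr6:4624350-4697204, minus strand), epsilon-sarcoglycan, had 29.4 and 89.0 in serum/-LIF and 4.02 and 17.2 with Royalactin. Magel2 (chr7:69521865-69526526, plus strand), a MAGE family regulator of ubiquitin ligases, had 95.0 and 66.2 in serum/-LIF and 27.2 and 24.1 with Royalactin. The Royalactin libraries were below both serum/-LIF libraries for each of these genes, and the replicates of Sgce differed by more than the nearest libraries of its groups. Log2 fold changes were -1.40 for Nnat (SE 0.56), -2.45 for Sgce (SE 1.14) and -1.60 for Magel2 (SE 0.75). In limma with Benjamini-Hochberg adjustment the adjusted p was 0.434, 0.534 and 0.543. The window of Nnat is given for the same reason as that of Igf2 (chr2:157559828-157560127, plus strand, GRCm38.p6).
Nnat: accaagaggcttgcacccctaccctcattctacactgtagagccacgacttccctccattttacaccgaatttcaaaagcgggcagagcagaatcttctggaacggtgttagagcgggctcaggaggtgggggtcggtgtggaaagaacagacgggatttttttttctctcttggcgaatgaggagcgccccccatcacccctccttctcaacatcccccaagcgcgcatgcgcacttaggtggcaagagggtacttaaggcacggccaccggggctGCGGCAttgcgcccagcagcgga

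At Snrpn/Ube3a, the region of the Prader-Willi and Angelman syndromes in humans, the genes were divided. Snrpn and Snurf, which share a transcript, had no reads in any of the 4 libraries, where 3 reads were taken as the limit that a count of 0 allows. Since Snurf lies within Snrpn in RefSeq and 22.4% of the exon tiles of Snrpn match elsewhere, a loss of reads in counting and a lack of RNA cannot be told apart. Ube3a, the ubiquitin ligase that is maternally expressed in neurons, had 2748 and 3376 in serum/-LIF and 3168 and 2627 with Royalactin, which interleave (log2 fold change -0.08, SE 0.29, above 0 without replicate 2 of either group). Ndn, which encodes necdin, had a log2 fold change of -0.90 (SE 0.57) and Mkrn3, a ring finger protein, one of 0.83 (SE 0.65), each with groups apart.

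Grb10 (chr11:11830511-11938686, minus strand), an adaptor that restrains insulin receptor signalling and is maternally expressed outside the brain, was among the most tightly measured genes. It had 6166 and 5669 in serum/-LIF and 3835 and 3665 with Royalactin. Both groups were compact and far apart relative to their spread, at 5918 ± 352 and 3750 ± 120 (SD, n = 2). The log2 fold change was -0.66 (SE 0.29, adjusted p = 0.507 in limma after Benjamini-Hochberg adjustment). Its neighbour Ddc, dopa decarboxylase, spanned 24.1 to 225 in serum/-LIF alone. A window of Grb10 is given because it also holds the hexamer (chr11:12037371-12037670, minus strand, GRCm38.p6), which the other Grb10 window does not.
Grb10: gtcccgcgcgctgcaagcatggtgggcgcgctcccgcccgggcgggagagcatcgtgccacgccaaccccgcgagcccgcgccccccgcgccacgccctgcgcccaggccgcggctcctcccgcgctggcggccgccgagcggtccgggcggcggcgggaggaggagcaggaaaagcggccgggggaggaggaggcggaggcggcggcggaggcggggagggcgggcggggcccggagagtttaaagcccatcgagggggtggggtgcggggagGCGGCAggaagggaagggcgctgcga

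The other tested genes had log2 fold changes between -1.13 (Nap1l5, a nucleosome assembly protein relative, SE 1.16) and 0.63 (Sfmbt2, a polycomb group protein, SE 0.33). Sfmbt2 had 563 and 477 in serum/-LIF and 900 and 711 with Royalactin, and Impact, which restrains the kinase Gcn2, had 1541 and 1093 against 1749 and 1921. Both were above in both Royalactin libraries. Mest, a hydrolase relative, was apart at -0.37 (SE 0.29), as were Plagl1, a zinc finger factor, at -0.66 (SE 0.54) and Zrsr1, a splicing factor relative, at -0.38 (SE 0.45). Overlap was seen for Peg10, a gene derived from a retrotransposon (-0.56), Commd1 (-0.59), the coatomer gene Copg2 (-0.01), H13 (-0.11) and its intronic retrogene Mcts2 (0.11). Some of these share exons, since 23.0% of the exons of Mest and 20.2% of those of Copg2 overlap each other on opposite strands and 29.2% of those of Commd1 overlap B3gnt2 on the same strand.

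By parental class, the median log2 fold change was below 0 in both. Of the 17 maternally expressed genes 15 were tested, with a median log2 fold change of -0.11 and groups apart for 3 lower and 2 higher (20.0% and 13.3%, against 18.9% and 19.7% of all tested genes). Of the 25 paternally expressed genes 22 were tested, with a median of -0.14 and groups apart for 10 lower and 4 higher (45.5% and 18.2%, against the same shares). Gnas was left out of both classes. The maternal class includes Copg2, Ube3a, Ascl2, Cd81 and Commd1, maternally expressed only in some tissues, and H13, where it depends on the isoform. The paternal class includes Ddc and Sfmbt2, paternally expressed only in some tissues, and Inpp5f, where it depends on the isoform. Whether these genes were expressed from 1 copy here was not tested. The paternal median was not steady, at 0.01 without serum/-LIF + Royalactin replicate 2, -0.44 without replicate 1 of that group and -0.40 without serum/-LIF replicate 1, and the maternal median was -0.25 without serum/-LIF replicate 2. The 7 noncoding RNAs, all tested, had a median of -0.19 and the 31 tested coding genes one of -0.11, against -0.0076 for all tested genes. The difference between the classes was not tested.

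Compared per kilobase of exon, which was known for 41 of the genes, the highest levels over the 4 libraries were those of Cd81, Ube3a and Phlda2. Cd81 had a level of 667 normalized counts per kilobase in serum/-LIF and 589 with Royalactin, Ube3a 601 and 568, and Phlda2 420 and 689. By level per kilobase they lie at percentiles 91.4, 90.9 and 90.3 of the tested genes, and the order differs between the groups. In serum/-LIF Cd81 was followed by Grb10 (646), Ube3a and Rian (579), and with Royalactin Phlda2 was followed by Cd81, Ube3a and Impact (535), with Grb10 at 409 and Rian at 405. Igf2 and H19 stood well below, at percentiles 29.3 and 34.3. Kcnq1ot1 has no exon model in the annotation used and could not be placed.

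Most genes of a list for setting, keeping or erasing imprints had positive log2 fold changes. Of these 25 genes, all tested, 2 rose (limma adjusted p under 0.05, Benjamini-Hochberg), against 0.331% of all tested genes called higher. The fitted log2 fold change was above 0 for 21, against 6414 of all 12993 tested genes. That number was not steady, at 15 without serum/-LIF + Royalactin replicate 1 and 24 without replicate 2 of that group. The groups were apart for 14 higher and 1 lower (56% and 4%, against 19.7% and 18.9%). The median log2 fold change was 0.33. Zfp57, the zinc finger protein that binds methylated imprint control regions, had 425 and 471 in serum/-LIF and 1547 and 1569 with Royalactin, a log2 fold change of 1.80 (SE 0.30, adjusted p = 0.0184 in limma after Benjamini-Hochberg adjustment). Tet2, an oxidase of 5-methylcytosine, had 401 and 420 in serum/-LIF and 2461 and 1847 with Royalactin, a log2 fold change of 2.37 (SE 0.31, adjusted p = 0.00333 in limma after Benjamini-Hochberg adjustment). The libraries of the 2 groups were far apart for both genes. Both calls were lost without serum/-LIF replicate 1 (adjusted p = 0.179 for both), without serum/-LIF + Royalactin replicate 1 (0.568 for Zfp57 and 0.313 for Tet2) and without its replicate 2 (0.801 and 0.642), and over all alternatives the adjusted p ranged from 1.87e-06 to 0.801 for Zfp57 and from 6.51e-12 to 0.642 for Tet2. Trim28, the corepressor that Zfp57 recruits, and Dnmt1, the maintenance methyltransferase, had log2 fold changes of 0.77 and 0.68 that did not pass the test (adjusted p = 0.527 and 0.518). Larger log2 fold changes, of 1.17 for Tet1 and 1.05 for Dnmt3l, did not pass it either (limma adjusted p = 0.210 and 0.180). The 1 gene whose groups were apart and lower was Dnmt3b, with a log2 fold change of -0.45 (SE 0.33). The lowest log2 fold change was that of Tet3, at -0.53 (SE 0.58), which was 0.01 without serum/-LIF + Royalactin replicate 2.

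**Figure D4:**
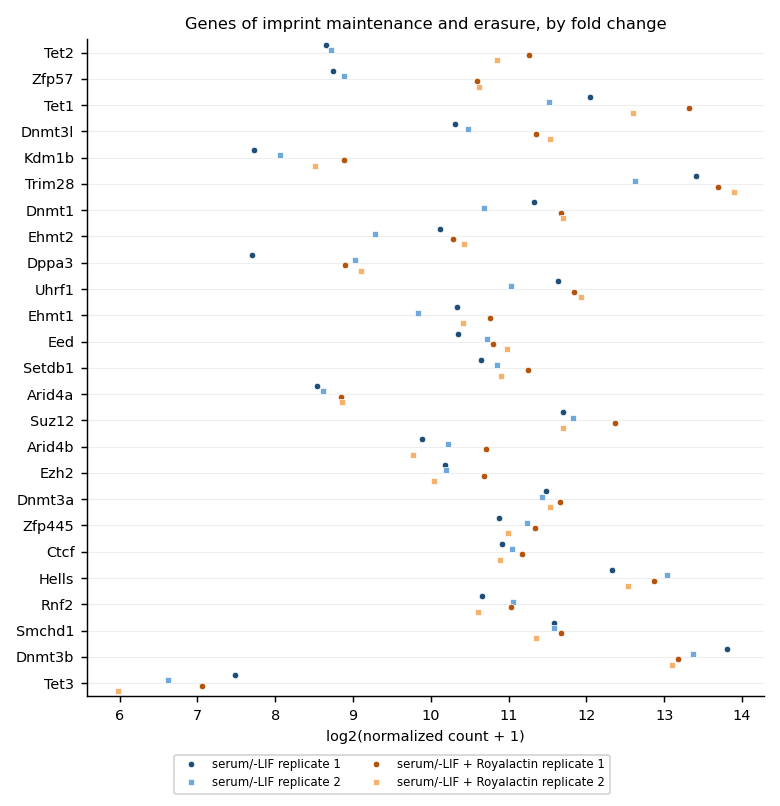
Normalized counts of the 25 genes of imprint maintenance and erasure in each library, as log2(normalized count + 1), ordered by log2 fold change, with circles and squares for replicates 1 and 2, blue for serum/-LIF and orange for serum/-LIF + Royalactin. Tet2 and Zfp57, the 2 genes with an adjusted p under 0.05, have both Royalactin libraries to the right of both serum/-LIF libraries by the widest margin.

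A second list of 38 imprinted genes outside the 43 had 37 rows, of which 20 were tested and 8 had no reads in any library. None had an adjusted p under 0.05 in limma (0 of 20, against 0.493% of all tested genes), 4 had an unadjusted p under 0.05 (20.0%, against 9.34%), and the median log2 fold change was 0.06. The highest fitted change was that of the actin nucleator gene Cobl, with 199 and 61.1 in serum/-LIF and 893 and 443 with Royalactin (log2 fold change 2.50, SE 0.54, adjusted p = 0.0729 in limma after Benjamini-Hochberg adjustment, and 5.47e-07 to 1.00 over the alternatives). The lowest was that of Dcn, decorin, a matrix proteoglycan of fibroblasts, with 28 and 30 reads in serum/-LIF and 0 in both Royalactin libraries.

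**Figure D5:**
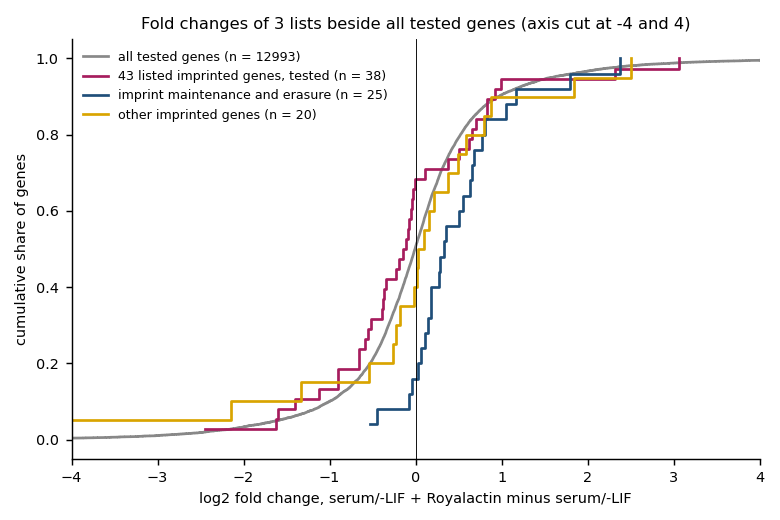
Cumulative share of genes (vertical axis) by log2 fold change, serum/-LIF + Royalactin minus serum/-LIF (horizontal axis, cut at -4 and 4), for all 12993 tested genes (grey), 38 tested imprinted genes (red), 25 genes of imprint maintenance and erasure (blue) and 20 other imprinted genes (yellow). The medians are -0.13 for the imprinted genes, 0.33 for the genes of maintenance and erasure and 0.06 for the other imprinted genes, against -0.0076 for all tested genes.

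The zinc finger hexamer was more frequent in the start-site windows of the imprinted genes than in those of all genes, and the windows were also richer in CpG. RefSeq windows (GRCm38.p6, 300 bases) were used for 35 of the 43 genes, 50 distinct windows in all. Windows on chr18, where Impact lies, were left out for the imprinted genes but not for all genes. Of the 50 windows, 13 (26%) held TGCCGC on either strand, against 11.6% of 32817 distinct windows of all genes. A pair of Mest windows among the 13 start 3 bases apart and hold the same matches. The median number of CpG was 15 in them and 7 in all windows. By gene, 13 of 35 (37.1%) held the hexamer, against 13.1% of all genes with a window, where Snrpn and Snurf share the window that holds it. In each of the Igf2, Nnat and Grb10 windows printed above it stands once, within the 50 bases after the start. A match describes the letters and not a bound site.

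Markers of other cell types differed between the groups in both directions. Of all tested genes, 0.331% were called higher and 0.162% lower (limma adjusted p under 0.05). The share at an unadjusted p under 0.05 in limma was 9.34%. The summed level of 10 trophoblast markers was 1811 and 1827 in serum/-LIF and 531 and 907 with Royalactin. Of its 4 tested genes Krt8 and Krt18, keratins of simple epithelia that made up most of the sum in serum/-LIF, fell (limma adjusted p = 0.0400 and 0.0336, Benjamini-Hochberg), while Tfap2c, at 37.4 and 104 in serum/-LIF and 214 and 310 with Royalactin, was higher without passing the test, and the defining placental genes Elf5, Tpbpa and Prl3d1 had no reads in any library. The sum of 10 mesoderm markers was 2134 and 2685 in serum/-LIF and 274 and 357 with Royalactin. Most of it was Tagln, a smooth muscle actin-binding protein, at 1896 and 2524 against 135 and 240, the 1 of 7 tested that fell (limma adjusted p = 0.00184, Benjamini-Hochberg). Of the 7, groups were apart for 2 higher (Kdr and Gata4) and 2 lower, against 19.7% and 18.9% of all tested genes. Tbx6 had no reads. The sum of 10 neural markers was 2499 and 2353 against 1574 and 1647, and its difference was that of Nes, nestin, at 1490 and 1099 against 334 and 326, the 1 of 7 tested that fell (limma adjusted p = 0.0166, Benjamini-Hochberg). Of the other neural markers Pax6 and Tubb3 were higher in both Royalactin libraries without passing the test, and the median log2 fold change of the 7 was 0.20. Sums of 10 primitive endoderm markers (2907 and 1689 against 2482 and 1818, 7 tested, none called, 0 at an unadjusted p under 0.05) and of 12 fibroblast markers (217 and 116 against 140 and 117, 5 tested, none called, 1 at an unadjusted p under 0.05, with Pdgfrb and Postn at 0) overlapped between the groups. The part of these cells in the levels of the imprinted genes was not tested.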

How the data were processed

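RNA-seq of J1 mESCs was used, 2 libraries each of serum/-LIF and serum/-LIF + Royalactin, assigned from the sample labels. The other samples of the series were not analysed here. The authors aligned the reads to mm9 with TopHat (Bowtie is also named in the submitters' processing notes), counted reads on genes with HTSeq-count, and deposited DESeq-normalized counts, a signal proportional to reads. The annotation and strand setting of the counting are not given in the sources used here. Read numbers are values divided by the step that 1 read is worth, of which 100% of values are whole multiples to within 0.01 read. A step near 1 in 1 library left this undecided in an automatic check, so no test on read counts was run. The limit of 3 reads taken for a count of 0 covers counting error only.

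limma 3.58.1 (R 4.3.3) was fitted to log2(normalized count + 1) (variance trend, two-sided, Benjamini-Hochberg over all genes with a mean of at least 10), after a check on simulated data. The pseudocount shrinks the fold changes of low genes, but where 1 library is at 0 (Usp29, Dlk1, Zim1) the fitted value can exceed the ratio of means or differ from it in sign. The selection at p 0.05 and 2-fold uses the limits the study names, without adjustment. Libraries overlap unless both of one group exceed both of the other. The alternatives were pseudocounts of 0.1 and 5, a mean of at least 50 or above 0, upper-quartile, TMM and equal-total scaling, no trend, the replicate block, and each library left out.

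The members, lists and parental classes were chosen with earlier results of these data known, the classes from textbook knowledge. Full values are given for genes with an adjusted p under 0.05, genes that differ 2-fold without overlap, the 3 highest per kilobase and 5 clusters (H19/Igf2, Igf2r/Airn, Dlk1-Dio3, Kcnq1, Gnas). Grb10, Peg3, Sfmbt2, Impact, Ndn, Mkrn3, Usp29, Zim1, Ddc, Trim28, Dnmt1, Tet1, Dnmt3l, Dnmt3b and the members listed by direction were named after their values were seen. Positions and exons of 41 genes come from the GENCODE annotation of mm9. Exon tiles of 75 bases, every 25, were mapped with minimap2 2.31-r1302. Start-site windows and miRNAs come from RefSeq (GRCm38.p6), a later build.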

Additional observations from a re-analysis of the deposited data

How the results depend on the processing

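The directions of 24 of the 34 genes followed were the same under all alternatives. The 34 include every imprinted gene whose groups did not overlap, and leaving out a library cannot turn the sign of such a gene. The counts of imprinted genes at an unadjusted p under 0.05 and 2-fold, and with a fitted log2 fold change below 0, stayed within 1.5 times. So did the counts of those lying apart in either direction or lower. This limit is wide, and the count below 0 was 22 with equal totals in place of 26. With 2 libraries per group and replicate spread of this size, small differences could not be tested with precision, and the causes of the shifts were not tested. Across 12993 genes, the deviations of the replicate 1 libraries from their group means correlated at 0.0851 between the groups. Rn45s took 46.6% (serum/-LIF) and 38.4% (with Royalactin) of reads in replicate 1, and 21.6% and 9.08% in replicate 2. Whether same-numbered libraries were prepared together is not given and was not tested. With the replicate number as a block 1 imprinted gene passed the threshold (Gnas) in place of 0, 2 other imprinted genes in place of 0 and 4 genes of imprint maintenance in place of 2. That last count was 0 without the variance trend and 0 to 2 with each library left out. The count of other imprinted genes was 1 with a pseudocount of 5 and 1 with a mean of at least 50. Imprinted genes at an unadjusted p under 0.05 numbered 2 to 7, and those lying apart and higher 9 to 10, with each library left out. The median log2 fold change of paternally expressed genes was -0.2315 with a mean of at least 50, -0.0551 with no filter and -0.0879 with equal totals, and -0.442 to 0.0126 with each library left out, and that of maternally expressed genes -0.2535 to -0.0672. With equal totals the log2 fold change was above 0 for Igf2r (0.0257), Inpp5f (0.0084) and Kcnq1ot1 (0.000363). In fits that leave out 1 library it lay from -1.77 to 2.90 for Airn, -0.46 to 0.17 for Cd81, -0.0106 to 4.64 for Dlk1, -0.78 to 0.40 for H19, -0.25 to 0.19 for Igf2r, -0.48 to 0.37 for Kcnq1ot1, -0.56 to 0.38 for Mirg, -1.07 to 0.0127 for Tet3 and -0.23 to 0.07 for Ube3a.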
